A study of Helianthus annuus with 9 samples.

Results

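The net change between late and early seeds of 1 sunflower line was measured as day 37 against day 7, with 3 libraries each. The plants were Helianthus annuus of the line L-1-OL-1, which is rich in oleic acid. They were grown in an open field with no treatment, and all groups share this line. Another 3 libraries of day 22 were used to place the change in time. The event from which the days count is not stated in the labels, and neither is whether each library was made from a different plant. P-values here measure the spread between these libraries. Total RNA without ribosomal RNA was sequenced, and the deposited levels are in FPKM, which divides fragments by transcript length and by library size. FPKM is per length, so levels of different genes can be compared, but it gives no counts and the depth is unknown. An annotated gene, one with a number as its ID, was followed if it reached 5 FPKM in 3 or more of the 6 libraries of day 37 and day 7. This held for 12112 of the 52513 annotated genes in the mRNA table, which has 65535 features, and for 345 of the 7573 annotated genes in the lncRNA table (long non-coding RNA). All 3482 circular RNA (circRNA) were kept.

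A growing seed passes through embryo growth by cell division, then filling with storage oil and storage protein, then drying. During drying most transcription ends, and the dry seed keeps a store of mRNA that is used when it germinates. Sunflower stores oil as its main reserve, and in high-oleic lines this oil is mostly oleic acid. These stages are background only. Product names were not used here, since neither the tables nor the gene table pair them with the IDs, so no gene below is given a role and seed markers were not looked up.

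Of the 12112 mRNA genes, 11813 matched a gene of the assembly HanXRQr2.0-SUNRISE and are called by its symbol. Among these were 11790 protein-coding genes, 12 lncRNA, 10 other RNA and 1 pseudogene, as that assembly has them. The other 299 had no match and are called ID with their number. The gene nearest above the 5 FPKM limit was LOC110867412, with 3.48, 2.1 and 0.67 FPKM on day 37 and 5, 5.15 and 5.77 FPKM on day 7. The nearest below it was LOC110869501, with 20.39, 15.66 and 4.51 FPKM on day 37 and 4.79, 3.79 and 4.99 FPKM on day 7. The value that the rule reads, the one of rank 3 among the 6, was under 6 FPKM in 1140 of the genes that passed, and was at least 4 but under 5 FPKM in 1428 annotated genes that did not. A gene could pass through 1 day alone: 6200 genes had no day 37 library at 5 FPKM and 633 had no day 7 library there. Such genes had to differ, so counts over all 12112 describe the set and are no support for a direction.

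Day 37 replicate 3 stood apart from the other day 37 libraries. The FPKM of the 12112 genes summed to 182131, 141207 and 47679 in day 37 replicates 1 to 3, and to 471249, 476457 and 473033 in those of day 7. The median gene in day 37 replicate 3 stood at 0.25 of its level in replicate 1, while on day 7 this ratio was 1.02. Annotated genes took 77.9%, 72.7% and 51.9% of the summed FPKM of the mRNA table in day 37 replicates 1 to 3, and 91.0% to 91.2% on day 7. The day 22 libraries declined in the same order. In replicates 1 to 3 the 12112 genes summed to 238176, 187515 and 128480 FPKM there, and annotated genes took 85.1%, 79.8% and 72.6%. Across genes, log2 levels had a Pearson r of 0.99 between day 37 replicates 1 and 2, of 0.888 and 0.919 between replicate 3 and these, and of 0.996 to 0.998 among the day 7 libraries. Counts of net calls are given with and without day 37 replicate 3 where it matters. In RNA from bulk seed tissue, fewer cells of a type and less RNA per cell cannot be told apart.

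Most genes that passed stood lower on day 37. The log2(FPKM + 1) values of all 9 libraries were fitted with limma over all 36401 features tested, with p-values adjusted by Benjamini-Hochberg. A gene was called where that p was under 0.05 and its log2 change was 1 or more in size. By this rule 697 of the 12112 genes rose (5.75%), 9598 fell (79.2%) and 1817 were not called. Of all features tested, 39.4% rose and 38.8% fell, and of the tested annotated features 24.3% rose and 50.4% fell. The day 37 values lay wholly above the day 7 values in 692 genes and wholly below them in 10175, against 42.4% and 47.2% of all features tested. In 1113 genes all 6 libraries were at 5 FPKM or more, and of these 51 rose, 500 fell and 562 were not called.

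These counts depended on the scaling. The median log2 change was −2.09 over the 12112 genes and −0.32 over all features tested. When each library was scaled to the same sum of annotated FPKM, these medians were −0.66 and 0.80, and 1579 genes rose while 4932 fell. The share of rises among the calls was 6.77% as deposited and 24.3% with this scaling. All 697 rises and 4932 of the 9598 falls were called in both. Without day 37 replicate 3, 853 genes rose and 8384 fell, and these hold all 697 rises and 8383 of the falls.

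**Figure D1:**
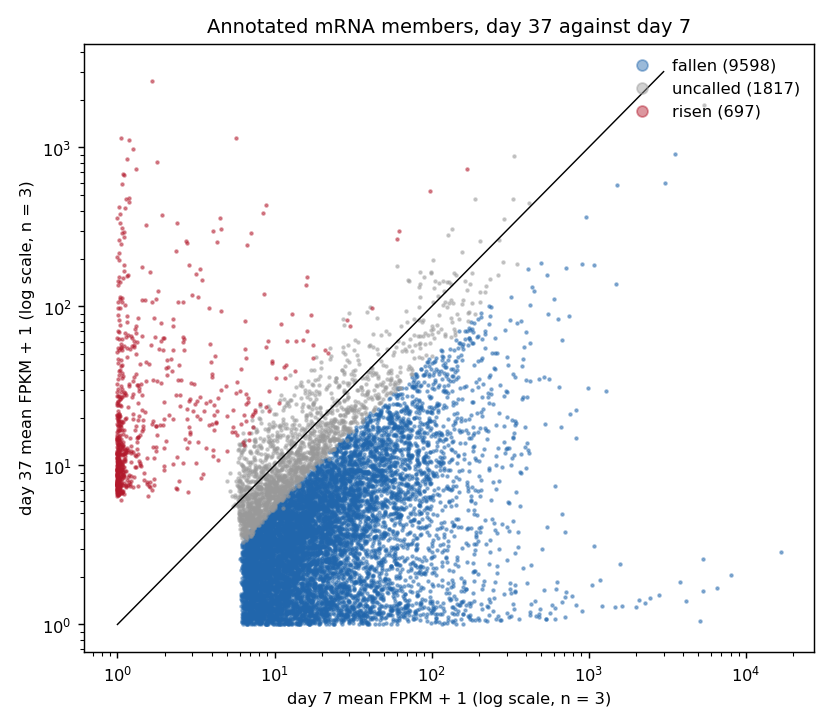
Mean FPKM + 1 of each annotated mRNA gene on day 37 (vertical, log scale) against day 7 (horizontal, log scale), n = 3 libraries each; the line marks equal levels. The 697 risen genes (red) lie mostly at the left edge, the 9598 fallen genes (blue) below the line, and the 1817 uncalled genes (grey) around it.

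The most abundant genes of the 2 ages were largely different genes. Of the 100 genes with the highest mean on day 37 and the 100 with the highest mean on day 7, 12 were in both lists. In the day 37 list 60 genes had risen, 10 had fallen and 30 were not called, and 36 were under 1 FPKM in every day 7 library. In the day 7 list 98 genes had fallen and 2 were not called, and 34 were under 1 FPKM in every day 37 library. Over all 12112 genes the Spearman rho of the day 37 and day 7 means was 0.199, a description across genes that share libraries. The 697 risen genes held 31.0%, 32.2% and 41.8% of the summed FPKM in day 37 replicates 1 to 3, but 0.259% to 0.285% in the day 7 libraries. The 9598 fallen genes held 38.8%, 37.8% and 32.8% on day 37, and 90.3% to 90.7% on day 7. These shares follow from how both sets were chosen. They are shares of the summed FPKM of the 12112 genes, not of all mRNA in the seed. Of the summed FPKM of the 12112 genes, the highest 443 to 482 genes held 50% on day 37, against 667 to 697 genes on day 7, while the 10 highest genes held 9.95% to 10.7% on day 37 and 13.2% to 13.9% on day 7.

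Several genes that were near 0 on day 7 were among the most abundant on day 37. LOC110885558 was the highest gene of day 37, with 3150.05, 2990.3 and 1744.86 FPKM on day 37 and 0.32, 0.53 and 1.14 FPKM on day 7. Its groups lay far apart, and it was high in day 37 replicate 3 as well. Its log2(FPKM + 1) change was 10.61 ± 0.52 (SE; limma adjusted p 2.48e-09). LOC110935334 had 1761.54, 1366.01 and 310.97 FPKM on day 37, and 0, 0 and 0.18 FPKM on day 7. LOC110885604 had 1605.95, 1301 and 413.76 FPKM on day 37, and 0.14, 0.2 and 0.21 FPKM on day 7. Both were lowest in day 37 replicate 3 and still more than 300 FPKM there, far above any day 7 library. Their log2 changes were 9.75 ± 0.63 and 9.66 ± 0.54 (SE), with limma adjusted p of 2.54e-08 and 7.58e-09. LOC110936731, whose assembled exons lie on NC_035436.1 from 100029025 to 100030276 (the genome build is not stated), had 1613.32, 1091.79 and 240.9 FPKM on day 37 and 0.17, 0.25 and 0.37 FPKM on day 7 (log2 change 9.22 ± 0.65).

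The other 6 of the 10 rises with the largest change were LOC110897821, LOC110941627, LOC110890334, LOC110911836, LOC110941655 and LOC110881169. Their day 37 means ran from 471 to 844 FPKM and their day 7 means from 0.0767 to 0.303 FPKM, with log2 changes from 8.72 to 9.15. LOC110881169 had 528.06, 468.07 and 417.66 FPKM in the day 37 libraries, against 0, 0 and 0.4 FPKM on day 7. It kept a similar level in all day 37 libraries, while the other 5 of these 6 stood in replicate 3 at 0.152 to 0.305 of their replicate 1 level. LOC110895162, also among the 8 highest genes of day 37, was already present on day 7. It had 1781.28, 1344.86 and 326.33 FPKM on day 37 and 4.6, 4.54 and 4.91 FPKM on day 7, a log2 change of 7.34 ± 0.67 (limma adjusted p 3.33e-07).

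Some risen genes were above the 5 FPKM limit on both days, so they did not pass through day 37 alone. The following 4 were chosen after their values were seen. LOC110870175 had 1049.91, 926.62 and 220.73 FPKM on day 37, and 174.2, 153.19 and 174.78 FPKM on day 7. LOC110908673 had 852.49, 603.66 and 147.78 FPKM on day 37, and 98.41, 96.44 and 94.63 FPKM on day 7. In both, every day 37 library lay above every day 7 library, with the smallest gap in replicate 3. LOC110908673 rose by 2.12 ± 0.72 (limma adjusted p 0.0133), and LOC110870175 by 1.84 ± 0.70 (adjusted p 0.0246), a call that was lost without any 1 of day 37 replicates 1 and 2 or of the day 7 libraries (adjusted p from 0.0666 to 0.0836). LOC110904071 had 703.45, 503.45 and 86.3 FPKM on day 37, and 7.74, 7.58 and 7.97 FPKM on day 7 (log2 change 5.16 ± 0.72). LOC110879536 had 606.53, 450.13 and 106.74 FPKM on day 37, and 7.06, 7.76 and 7.62 FPKM on day 7 (log2 change 5.19 ± 0.63). These last genes were just above the limit on day 7 and higher in every day 37 library, at limma adjusted p of 1.42e-05 and 3.93e-06.

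**Figure D2:**
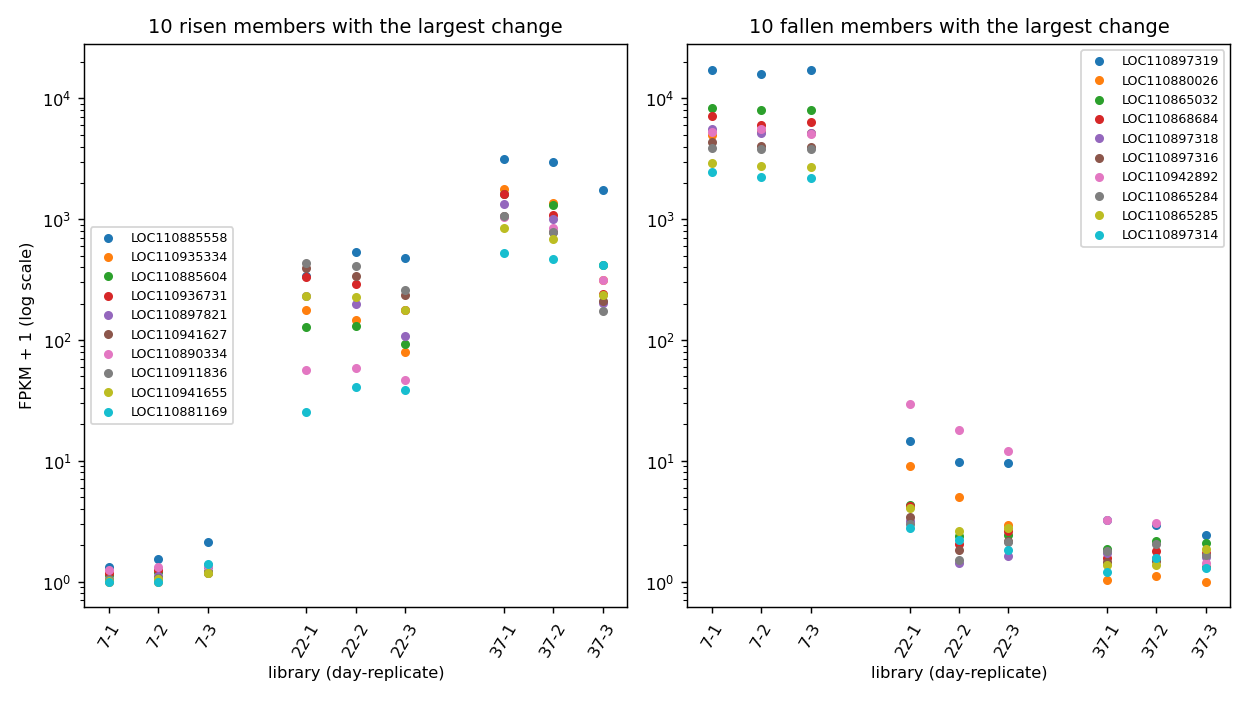
FPKM + 1 (log scale) in each of the 9 libraries, ordered by day and replicate, for the 10 risen (left) and 10 fallen (right) genes with the largest log2 change between day 37 and day 7; each colour is 1 gene. The risen genes are near 1 on day 7 and intermediate on day 22, and in day 37 replicate 3 most of them are lower than in the other day 37 libraries; the fallen genes had made 73.5% to 98.1% of their log2 fall by day 22.

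The genes with the largest falls include those that led the day 7 libraries. LOC110897319, the highest gene of day 7, had 2.22, 1.93 and 1.44 FPKM on day 37 and 17171.4, 15986.3 and 17334.2 FPKM on day 7. It was under 3 FPKM in every day 37 library, a log2(FPKM + 1) change of −12.53 ± 0.46 (SE; limma adjusted p 3.68e-10). LOC110880026 had 0.03, 0.11 and 0 FPKM on day 37, and 4980.91, 5244.34 and 5159.61 FPKM on day 7. LOC110865032 had 0.85, 1.16 and 1.09 FPKM on day 37, and 8295.39, 7989.48 and 8030.09 FPKM on day 7. LOC110868684 had 0.57, 0.78 and 0.73 FPKM on day 37, and 7149.76, 6072.68 and 6392.47 FPKM on day 7. All 3 stood at 1.16 FPKM or less in each day 37 library and differed little among the day 7 libraries. They fell by 12.26, 11.96 and 11.91 on the log2 scale (SE 0.46, 0.42 and 0.42). LOC110942892 had 2.22, 2.08 and 0.43 FPKM on day 37, and 5281.14, 5590.64 and 5075.5 FPKM on day 7, and fell by 11.10 ± 0.52.

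The other 5 of the 10 largest falls were LOC110897318, LOC110897316, LOC110865284, LOC110865285 and LOC110897314. Their means were 0.36 to 0.84 FPKM on day 37, against 2289 to 5320 FPKM on day 7, and their log2 changes ran from −11.67 to −10.73. All 10 falls and all 10 rises with the largest change kept their call and direction without day 37 replicate 3 and under every scaling tried. Among these 10 falls and 10 rises, which direction holds the largest change turned with the scaling. With annotated FPKM set equal, the largest fall was −11.25 (LOC110880026) and the largest rise was 11.72 (LOC110885558).

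Some of these genes are neighbours in the order of protein-coding genes of HanXRQr2.0-SUNRISE, which passes over any other gene between them. In that order LOC110897314, LOC110897316, LOC110897318 and LOC110897319 are 4 consecutive genes. Their day 37 means were 0.36, 0.41, 0.633 and 1.86 FPKM, and their day 7 means were 2289, 4148, 5320 and 16831 FPKM. All 4 were high in each day 7 library and under 3 FPKM in each day 37 library. LOC110865032 has LOC110865031 as its neighbour, which had 0.36, 0.32 and 0.24 FPKM on day 37 and 1640.76, 1570.28 and 1641.02 FPKM on day 7. LOC110864410 had 2.05, 1.44 and 0.7 FPKM on day 37 and 1570.78, 1612.01 and 1593.28 FPKM on day 7, and its neighbour LOC110864411 had means of 0.903 FPKM on day 37 and 1179 FPKM on day 7.

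In all, 61 genes had at least 300 FPKM in each day 7 library and under 5 FPKM in each day 37 library, limits that were chosen after the values were seen. Of the 60 that could be placed in gene order, 27 (45%) lay within 5 places of another, in 10 groups. Of all 11772 genes placed, 119 (1.01%) lay within 5 places of 1 of the 60. The largest of these groups begins at LOC110923192 and holds 7 of the 61 genes within 15 places: LOC110923192, LOC110923490, LOC110921492, LOC110921011, LOC110921013, LOC110921213 and LOC110923130. Their day 37 means ran from 0.14 to 2.83 FPKM, and their day 7 means from 330 to 709 FPKM. The places between them hold 8 genes, of which LOC110923183, LOC110922883 and LOC110921014 also fell. LOC110923854, LOC110921508 and LOC110921012 did not reach the 5 FPKM rule, and LOC118489144 and LOC110921211 were not analysed here. Neighbouring genes can be near-identical copies, and no source used here says how reads shared between copies were assigned, so the split of the level among neighbours is uncertain. In 57 of the 12112 genes (6 risen, 49 fallen and 2 not called) all 9 values were the same as those of another gene.

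Of 547 risen genes placed in the same order, 40 (7.31%) were next to another risen gene, in 19 runs of 2 or 3. Of the 9439 fallen genes placed 1.72% were next to a risen gene, and of the 1786 uncalled ones 1.85%. LOC110885662, LOC110885604 and LOC110885663 are 3 consecutive genes, with day 37 means of 141, 1107 and 18.1 FPKM and day 7 means of 0.0333, 0.183 and 0.01 FPKM. LOC110911836 is next to LOC110897821. Their day 37 means were 673 and 844 FPKM, and their day 7 means 0.0967 and 0.15 FPKM. LOC110904834 had 504.93, 404.84 and 168.03 FPKM on day 37 and is listed at 0 in all day 7 libraries, and its neighbour LOC110904833 had 381.22, 275.89 and 104.82 FPKM on day 37 and 2.84, 3.25 and 3.75 FPKM on day 7. LOC110925986 and LOC110925904 had day 37 means of 324 and 110 FPKM, against 0.527 and 0.433 FPKM on day 7. In each run named so far the members were lowest in day 37 replicate 3. This did not hold for all 19 runs: LOC110912795, next to LOC110912796, had 31.66, 33.63 and 44.57 FPKM on day 37. LOC110933048 and LOC110933050 form another run and had the same value as each other in every library.

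The depth of the falls varied widely. Of the 9598 fallen genes, 773 had a day 37 mean under 1% of the day 7 mean, 3074 stood between 1% and 10%, 3126 between 10% and 25% and 2625 above 25%. The median fallen gene stood on day 37 at 13.9% of its day 7 level. With annotated FPKM set equal, 773, 3056, 1103 and 0 of these 4 classes were still called fallen. That scaling raises the log2 change of most genes by a similar amount, so small falls leave the call first.

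The day 22 libraries place the falls and the rises differently. At day 22 the median fallen gene had made 58.2% of its net log2 change, with quartiles of 38.8% and 79.5%. The median risen gene had made 84.0%, with quartiles of 76.1% and 88.6%. These are log2 shares, which for a gene that starts near 0 run far ahead of shares in FPKM. The 697 risen genes summed to 1221, 1269 and 1350 FPKM in day 7 replicates 1 to 3. Their sums were 25141, 22267 and 17710 FPKM on day 22 and 56511, 45404 and 19949 FPKM on day 37. Of the fallen genes, 6300 had been called fallen between day 7 and day 22, and 3947 were called fallen between day 22 and day 37, of which 2037 fell at both steps and 112 had first risen. Of the risen genes, 632 were called risen at day 22 and 108 after it, and 73 rose at both steps. Over all features tested, 24.9% fell and 34.1% rose at day 22, and 16.6% fell and 0.843% rose after it. A fit of day 22 and day 37 alone took the replicate number as a block. In it 133 risen genes rose and 4573 fallen ones fell, against 1.14% and 18.6% of all features tested. The first step shares the day 7 libraries with the net change, the second shares the day 37 libraries with it, and both share the day 22 libraries, so they are given side by side and not as separate evidence, and the shares were not computed under other scalings.

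**Figure D3:**
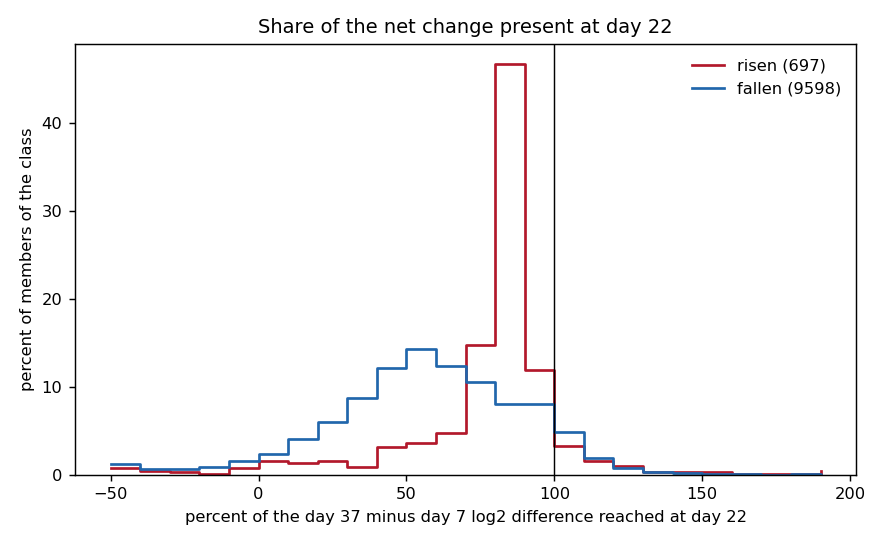
Percent of the day 37 minus day 7 log2 difference that was present at day 22 (horizontal, 10 points per bin, ends clipped), as the percent of 697 risen (red) and 9598 fallen (blue) genes; the line marks 100%. The risen genes peak between 80 and 90 points, and the fallen genes are spread broadly around their median of 58.2.

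The 61 genes that were abundant on day 7 and nearly absent on day 37 had all fallen by day 22, to a median of 2.19 FPKM. Other genes were called fallen at the second step alone, and the next 4 were chosen after their values were seen. LOC110864403 had 629.1, 638.43 and 647.19 FPKM on day 7, 941.39, 842.73 and 530.55 on day 22 and 123.69, 99.49 and 25.73 on day 37. Its day 22 values lay around those of day 7, and all of its day 37 values lay below both. Its net log2 change was −3.20 ± 0.68 (limma adjusted p 0.000593). LOC110905049 had 1170.28, 1057.65 and 1004 FPKM on day 7, 420.68 to 927.6 on day 22 and 282.72, 215.18 and 46.18 on day 37, and fell by 2.92 ± 0.75. Its day 22 values already lay below all of day 7, with 26.5% of the net change. LOC110924718, at NC_035434.1 from 152553812 to 152554772, was highest on day 22. It had 123.48, 148.21 and 135.46 FPKM on day 7, 217.99 to 394.75 on day 22 and 35.64, 26.46 and 6.81 on day 37, a net log2 change of −2.78 ± 0.61 (limma adjusted p 0.000785). LOC110873657 had 247.83, 220.51 and 228.96 FPKM on day 7, 215.98 to 542.38 on day 22 and 118.12, 92.25 and 18.1 on day 37. Its fall of 1.97 ± 0.71 (adjusted p 0.0191) was less firm: it was not called without day 7 replicate 1 (limma adjusted p 0.0531) nor with annotated FPKM set equal (−0.20).

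Fewer rises were called after day 22. Step counts are not given without day 37 replicate 3, in which most genes stood lower. LOC110929397, LOC110897501, ID110926809 and LOC110942377 were chosen after their values were seen as genes that rose after day 22. LOC110929397 had 14.14, 14.57 and 15.78 FPKM on day 7, 22.78, 14.51 and 12.92 on day 22 and 203.5, 146.2 and 55.45 on day 37. LOC110897501 had 9.5, 10.15 and 10.45 FPKM on day 7, 14.8, 10.36 and 9.48 on day 22 and 111.61, 88.24 and 30.06 on day 37. Both stood at nearly one level on day 7 and day 22, and all day 37 libraries lay above it. They rose between day 37 and day 7 by 2.92 ± 0.51 and 2.62 ± 0.49 on the log2 scale, with limma adjusted p of 0.000113 and 0.000188. ID110926809, an ID without a match in the assembly, had 23.99, 48.24 and 105.3 FPKM on day 7, 45.87, 88.22 and 71.07 on day 22 and 322.7, 266.47 and 202.47 on day 37, a log2 change of 2.36 ± 0.60 with a wide spread among its day 7 libraries. LOC110942377 had 24.58, 31.63 and 30.95 FPKM on day 7, 17.57, 17.46 and 13.16 on day 22 and 106.84, 82.09 and 32.74 on day 37. Day 37 replicate 3 lay just above day 7, and its rise of 1.17 ± 0.48 (limma adjusted p 0.0366) was lost without any 1 library of the 6 other than day 37 replicate 3 (adjusted p 0.0813 to 0.128).

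The risen genes were of 2 kinds with respect to day 37 replicate 3, a split that was made after the values were seen. In 315 of them replicate 3 stood at or below replicate 1, as in most genes, and in 382 it stood above. The first kind had a median day 37 mean of 40.6 FPKM and summed to 51894, 39905 and 12954 FPKM in day 37 replicates 1 to 3. The second kind was mostly low, with a median day 37 mean of 9.22 FPKM, and summed to 4618, 5499 and 6995 FPKM. On day 7 the second kind summed to 85.0, 92.8 and 97.3 FPKM. The genes named above as the largest rises are all of the first kind.

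Of the 382 genes of the second kind, 381 were also higher in replicate 3 than in replicate 1 on day 22. This held for 31 of the 315 of the first kind, 3.50% of the fallen genes and 1.54% of the uncalled ones. Over all 12112 genes, the deviations of same-numbered day 37 and day 22 libraries from their day's mean correlated at 0.556, 0.221 and 0.597 for replicates 1 to 3, so the same order on both days is no separate evidence. Of the second kind 133 had no match in the gene table, against 10 of the 315 of the first kind. Over all 12112 genes, 47.8% of the 299 unmatched genes rose, against 4.69% of the matched ones. Day 37 replicate 3 stood above replicate 1 in 7.99% of the fallen genes and in 2 of the 1817 uncalled ones. All 382 were called risen without day 37 replicate 3, and also with annotated FPKM set equal. The same held for all 697 rises, so it does not set this kind apart. That scaling raises day 37 levels against those of day 7, so a rise that keeps its call under it gains no support. The part that the make-up of the replicate 3 libraries has in the level of this kind was not tested.

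Within the second kind, 4 genes with high levels were named after their values were seen. LOC110942599 had 268.85, 386.28 and 416.17 FPKM on day 37, and 3.36, 3.49 and 3.66 FPKM on day 7. ID110906075, at NC_035433.1 from 71545956 to 71550451, had 183.67, 262.4 and 306.77 FPKM on day 37, and 1.78, 1.78 and 1.8 FPKM on day 7. Both were highest in day 37 replicate 3, lowest in replicate 1 and nearly constant on day 7. They rose by 6.29 ± 0.50 and 6.47 ± 0.47 on the log2 scale, at limma adjusted p of 1.12e-07 and 6.72e-08. ID110866557 and LOC110894380 (NC_035434.1 from 112958778 to 112962451) had day 37 means of 181 and 147 FPKM and day 7 means of 1.84 and 2.43 FPKM, with the same order of the day 37 libraries.

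**Figure D4:**
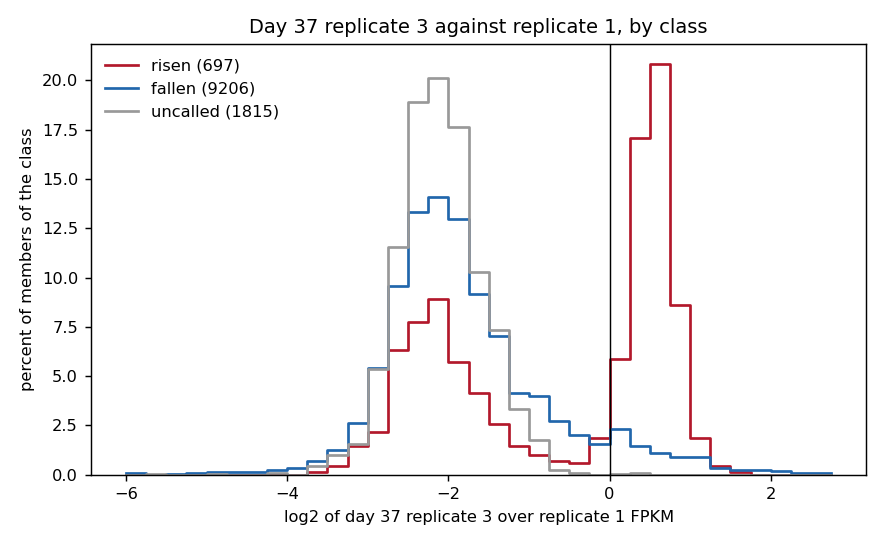
Log2 of the FPKM in day 37 replicate 3 over replicate 1 (horizontal, bins of 0.25, ends clipped), as the percent of risen (red), fallen (blue) and uncalled (grey) genes above 0 in both libraries; the line marks equal levels. Fallen and uncalled genes form 1 hump near −2, and the risen genes form that hump and another on the right of the line.

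Genes without a call include some of the most abundant ones. LOC110932526, at NC_035433.1 from 15778374 to 15780151, was among the 8 highest genes of both days. It had 2782.95, 2232.62 and 542.19 FPKM on day 37, and 5110.23, 5437.85 and 5637.65 FPKM on day 7. Every day 37 library lay below every day 7 library, but the log2 change of −1.85 ± 0.84 had a limma adjusted p of 0.0533. Without day 37 replicate 3 it was −1.11 with an adjusted p of 0.0113, without day 37 replicate 1 it was −2.29 with an adjusted p of 0.0214, and with quantile normalization its sign turned (0.38). LOC110877981 had 1396.99, 1019.75 and 295.65 FPKM on day 37, and 3509.84, 3562.68 and 3637.77 FPKM on day 7. It was called fallen (−2.25 ± 0.79, adjusted p 0.0166), but not with annotated FPKM set equal (−0.45, adjusted p 0.0991), nor without day 7 replicate 2 or 3 (limma adjusted p 0.0523 and 0.0539).

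Other uncalled genes lay on both sides of their day 7 level. LOC110865090 had 1349.52, 1062.43 and 247.18 FPKM on day 37, and 311.27, 355.59 and 336.39 FPKM on day 7. LOC110894923 had 665.42, 582.03 and 177.76 FPKM on day 37, and 186.33, 185.05 and 189.97 FPKM on day 7. In both, day 37 replicates 1 and 2 were about 3 times the day 7 level or more, and replicate 3 lay below it. Their log2 changes of 1.08 ± 0.72 and 1.13 ± 0.62 had limma adjusted p of 0.169 and 0.102. Without day 37 replicate 3 both were called risen, by 1.84 and 1.73 (adjusted p 0.00011 and 6.17e-05). LOC110870624 and LOC110899555 had day 37 means of 472 ± 307 and 446 ± 310 FPKM and day 7 means of 327 ± 17.9 and 414 ± 15.0 FPKM (SD, n = 3), with log2 changes of 0.20 ± 0.70 and −0.31 ± 0.75 that do not set a direction. With annotated FPKM set equal, which raises day 37 levels against those of day 7, all of these genes were called risen. LOC110865090 and LOC110894923 then had log2 changes of 2.87 and 2.92 (limma adjusted p 4.31e-05 and 3.37e-06). Those of LOC110870624 and LOC110899555 were 1.99 and 1.48 (limma adjusted p 0.000395 and 0.00392).

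A small net change can hide a large one in between. Of the 1817 uncalled genes, 31 rose at day 22 and fell after it. Of these, 3 were named after their values were seen. ID110940572 had 12.71, 13.42 and 14.42 FPKM on day 7, 1197.07, 898.91 and 643.48 on day 22 and 14.75, 11.19 and 4.1 on day 37. LOC110894757 had 15.78, 15.91 and 16.1 FPKM on day 7, 542.4, 446.63 and 345.44 on day 22 and 35.82, 29.81 and 10.5 on day 37. Both were far higher in every day 22 library than on the other days, and the ranges of day 37 and day 7 overlapped. The net log2 changes were −0.55 ± 0.52 and 0.48 ± 0.52, with limma adjusted p of 0.328 and 0.397. LOC110938216 (NC_035436.1 from 177690629 to 177691104) peaked likewise, with means of 70.6 ± 7.65 FPKM on day 7, 807 FPKM on day 22 and 144 ± 87.2 FPKM on day 37 (SD, n = 3). With annotated FPKM set equal, LOC110894757 and LOC110938216 were called risen over the net (log2 changes 2.16 and 2.56), and LOC110938216 also without day 37 replicate 3 (1.41, limma adjusted p 0.00125).

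Among the 345 annotated lncRNA, 34 rose, 268 fell and 43 were not called. Of all 34147 features tested in the lncRNA table, 84.4% rose and 3.88% fell, and of its tested annotated features 19% rose and 34% fell. The day 37 values lay wholly above the day 7 values in 32 lncRNA and wholly below in 284, against 90.9% and 6.14% of all features tested. The median log2 change was −1.78 over the 345 lncRNA and 1.37 over all features tested, most of which are assembled loci. Without day 37 replicate 3, 39 rose and 230 fell. With the factors that set annotated FPKM of the mRNA table equal, 52 rose and 79 fell. These factors, 0.311 to 0.864 on day 37 and 1.98 to 2.00 on day 7, do not set annotated lncRNA FPKM equal. Dividing by them raises day 37 levels against those of day 7. Under quantile normalization 18 rose and 298 fell. In the assembly 292 of the 345 are lncRNA and 20 are protein-coding, and 33 had no match. The lncRNA nearest above the 5 FPKM limit was LOC110908341, with 4.62, 2.85 and 1.64 FPKM on day 37 and 5.89, 5.36 and 5.01 FPKM on day 7. The nearest below it was LOC110867684, with 5.39, 4.99 and 7.51 FPKM on day 37 and 0.24, 0.17 and 0.17 FPKM on day 7. Of the steps in time, 29 of the 34 rises were called at day 22 and 4 after it, against 60.9% and 0.515% of all features tested. Of the 268 falls, 105 were called at day 22 and 141 after it, against 1.69% and 1.87% of all features tested. As for mRNA, the steps share libraries with the net change that defines these rises and falls. Higher shares than over all features therefore follow in part from that choice and are no separate evidence.

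The largest falls among lncRNA left almost nothing on day 37. ID110928057 had 0.28, 0.45 and 0.17 FPKM on day 37, and 170.39, 147.35 and 149.12 FPKM on day 7. ID110871406 had 0, 0 and 0.03 FPKM on day 37, and 116.13, 117.18 and 118.59 FPKM on day 7. Both were plainly present in each day 7 library and near 0 in each day 37 library, and on day 22 their means were already 0.177 and 0.05 FPKM. They fell by 6.92 ± 0.26 and 6.87 ± 0.25 (SE) on the log2 scale, with limma adjusted p of 1.56e-21 and 2.96e-22. ID110871408 and LOC110909936 had day 37 means of 0.01 and 0.0567 FPKM, against 83.2 and 70.8 FPKM on day 7.

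LOC110867528, at NC_035433.1 from 63827771 to 63881972, was the most abundant lncRNA of day 7. It had 966.27, 970.77 and 933.84 FPKM on day 7, 420.35 to 754.88 on day 22 and 62.35, 43.43 and 11 on day 37. It fell by 4.89 ± 0.51 (limma adjusted p 1.06e-10), mostly after day 22, and was still among the 3 highest lncRNA of day 37. LOC110878354 had 176.74, 143.03 and 131.1 FPKM on day 7, 62.62 to 188.03 on day 22 and 4.65, 2.44 and 0.24 on day 37. Its net fall was 5.70 ± 0.46, and 9.19% of it was present at day 22. LOC110872050, at NC_035433.1 from 91505952 to 91506785, fell by 3.21 ± 0.40, to a mean of 27.0 FPKM on day 37 against 243 FPKM on day 7.

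The risen lncRNA were less abundant. LOC110939334 had 33.02, 23.41 and 45.57 FPKM on day 37 and is listed at 0 in all day 7 libraries. LOC110934310, at NC_035436.1 from 7370839 to 7372302, had 18.79, 16.51 and 9.92 FPKM on day 37, and 0, 0 and 0.02 FPKM on day 7. LOC110945124 had 10.32, 13.9 and 16.44 FPKM on day 37, and 0.07, 0.07 and 0.05 FPKM on day 7. All 3 were absent or nearly so on day 7, and LOC110939334 and LOC110945124 were highest in day 37 replicate 3. The log2 changes of LOC110934310 and LOC110945124 were 3.95 ± 0.27 and 3.75 ± 0.27, with limma adjusted p of 5.53e-15 and 2.99e-14. ID110918314 had 9.2, 9.92 and 12.74 FPKM on day 37 and is listed at 0 in all day 7 libraries, and LOC110910752 had 10.33, 10.09 and 14.55 FPKM on day 37 and 0.04, 0.17 and 0.08 FPKM on day 7. LOC110911417 had 57.71, 41.69 and 12.73 FPKM on day 37, and 2.79, 3.29 and 3.14 FPKM on day 7, and rose by 3 ± 0.38 (limma adjusted p 6.95e-08), a call lost with quantile normalization (1.45, adjusted p 0.0866) and with median-of-ratios scaling (0.45, adjusted p 0.333). As among the mRNA, 21 of the 34 risen lncRNA stood higher in day 37 replicate 3 than in replicate 1, against 11 of the 268 fallen ones, and the part of that library's make-up was not tested.

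The highest lncRNA of day 37, LOC110871433, was not called. It had 50.49, 50.79 and 24.43 FPKM on day 37, and 37.78, 43.6 and 51.58 FPKM on day 7. The ranges overlapped, and the log2 change of −0.14 ± 0.36 had a limma adjusted p of 0.7. Of 28 risen lncRNA placed in gene order, 1 had a risen gene of the 12112 as the nearest protein-coding gene on at least 1 side and 11 had a fallen one. Of 247 fallen lncRNA placed, 8 had a risen one and 71 a fallen one. Of all 56957 protein-coding genes placed, 1.89% had a risen neighbour and 29.8% a fallen one. No source used here says whether counting used strand, so reads of an lncRNA and of an overlapping gene may be mixed.

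CircRNA are RNA whose ends are joined back to back, seen as reads across that junction. Their levels were deposited as a signal with no unit, scaled by the authors in a way that is not stated. The number with a signal above 0 was 697, 526 and 205 in day 37 replicates 1 to 3, and 1113, 1111 and 1237 on day 7. All day 37 libraries held fewer, and an exact permutation test, two-sided, had p = 0.1 (n = 3 each), the smallest that 3 against 3 libraries allow. The lowest signal above 0 was 19 to 21 in day 37 libraries and 28 or 29 in day 7 libraries. At a signal of at least 40, 203 ± 146 circRNA remained on day 37 and 711 ± 41.2 on day 7 (n = 3, SD). That limit is not equal for the 2 days. Low signals lay near whole multiples of a step, which was 9.46 to 10.5 in day 37 libraries and 14.0 to 14.5 in day 7 libraries. Fewer steps therefore reach 40 on day 7. Depth behind these numbers is unknown, so a circRNA at 0 is listed at 0 and not shown to be absent.

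In at least 2 libraries of day 37 and none of day 7 there were 90, and in at least 2 libraries of day 7 and none of day 37 there were 484. Another 151 were above 0 in at least 2 libraries of both days, and 2094 of all 3482 were seen in 1 of the 6 libraries alone. The median span on the genome was 1204 bases for the 90, 636 bases for the 484 and 992 bases for the 151. Of the 645 circRNA tested as log2(signal + 19) with limma, 21 rose (3.26%), 312 fell (48.4%) and 312 were not called. The day 37 values lay wholly below those of day 7 in 51.9% and wholly above them in 3.26%. Without day 37 replicate 3, 44 rose and 285 fell, of which 20 and 284 had been called with it.

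**Figure D5:**
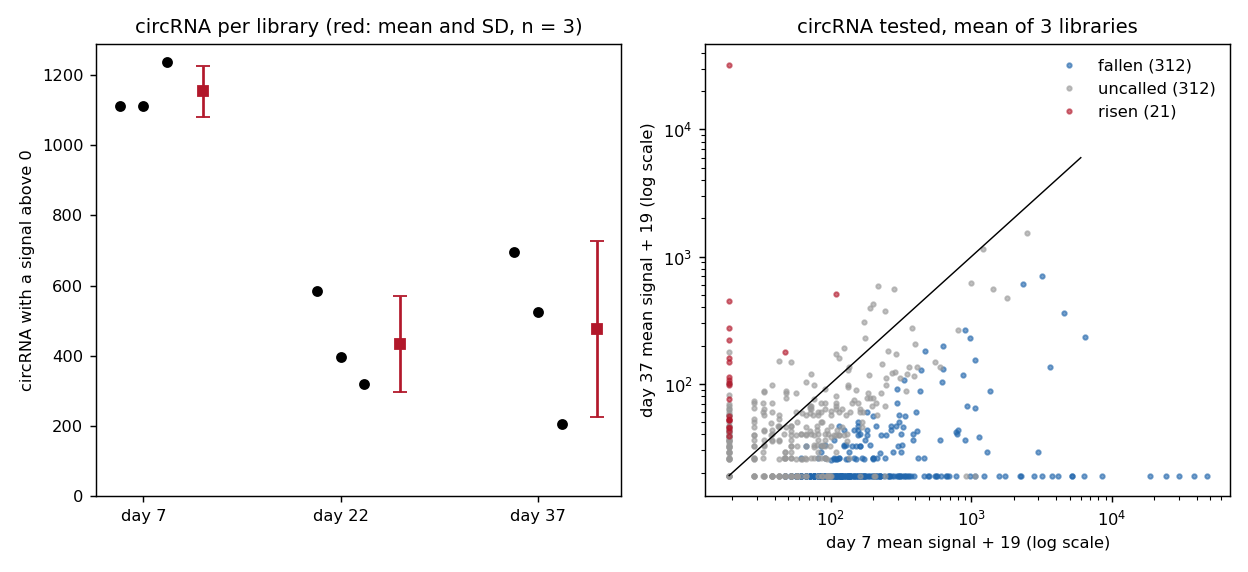
Left, the number of circRNA with a signal above 0 in each library by day (black points; red squares and bars are mean and SD, n = 3). Right, mean signal + 19 on day 37 (vertical) against day 7 (horizontal) for the 645 tested circRNA, log scales, with the line at equal signal; the 312 fallen (blue) lie mostly along the bottom edge and the 21 risen (red) mostly at the left edge.

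A single circRNA made up much of the day 37 signal. It lies on NC_035444.1 from 76408941 to 76438063 and had a signal of 44704, 41617 and 10785 on day 37, while it is listed at 0 in all day 7 libraries. It was 45.5%, 53.3% and 54.5% of the summed signal of day 37 replicates 1 to 3. On day 22 it stood at 11588 in replicate 1 and at 0 in the others, so the day 22 libraries disagree on it (net limma adjusted p 0.00586). The next largest rises were much smaller. A circRNA on NC_035449.1 from 27445320 to 27453984 had 774, 464 and 38 on day 37, and another on NC_035438.1 from 95204608 to 95204940 had 450, 283 and 38. Both are listed at 0 in all day 7 libraries, and their adjusted p were 0.0121 and 0.00557.

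The largest falls were of circRNA that led the day 7 libraries. The circRNA on NC_035433.1 from 75074236 to 75089399 is listed at 0 in all day 37 libraries and had 44832, 47060 and 49157 on day 7. The one on NC_035445.1 from 2850315 to 2853333 is also listed at 0 on day 37 and had 40388, 34337 and 39886 on day 7. Another, on NC_035449.1 from 50566231 to 50750807, is listed at 0 on day 37 and had 32715, 27614 and 29633 on day 7. All 3 were already at 0 in every day 22 library, at a limma adjusted p of 2.53e-08. Starts may count from 0: of 1091 circRNA on the sequences of the assembled exons, 47 began at an exon start and 124 began 1 base before one.

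Of the 151 circRNA seen in at least 2 libraries of both days, 2 rose, 45 fell and 104 were not called. The highest 5 of them follow. The circRNA on NC_035449.1 from 21207147 to 21211361 had 335, 192 and 114 on day 37, and 5492, 6867 and 6859 on day 7. It fell by 4.89 ± 0.44 on the log2(signal + 19) scale (limma adjusted p 6.42e-05). The circRNA on NC_035447.1 from 3878931 to 3898001 had 408, 525 and 85 on day 37, and 3717, 4699 and 5155 on day 7, and fell by 3.96 ± 0.64. The circRNA on NC_035433.1 from 5943489 to 6000329 had 2824, 1241 and 511 on day 37, and 2236, 2443 and 2686 on day 7. Its ranges overlapped, and its log2 change of −0.99 ± 0.58 was not called (adjusted p 0.188), but without day 37 replicate 1 it was −1.59 with a limma adjusted p of 0.0193. The circRNA on NC_035434.1 from 178311462 to 178312100, in LOC110927324, had 1109, 858 and 104 on day 37, and 3620, 2877 and 3061 on day 7. All its day 37 values were lower, and it fell by 2.69 ± 0.89 (adjusted p 0.0351), a call lost without any 1 of the day 7 libraries (adjusted p 0.0827 to 0.0972). The circRNA on NC_035449.1 from 193973950 to 194056741 had 167, 182 and 0 on day 37, and 2963, 3817 and 4015 on day 7, and fell by 5.33 ± 0.91.

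Many circRNA lie on sequences that the assembled exons do not cover, and could not be placed in a gene here. Among the others, both ends of 132 circRNA lay at exon ends of 1 annotated gene, within 1 base. Of these, 26 were tested and had a host gene tested in the mRNA table. In 8 both the circRNA and the host fell, in 10 the host fell while the circRNA was not called, and in 7 neither was called. Of LOC110930260, whose circRNA lies on NC_035435.1 from 137948167 to 137954574, the circRNA had 0, 30 and 28 on day 37 and 1020, 1027 and 1314 on day 7, and the gene 0.33, 0.33 and 0.13 FPKM on day 37 and 6.32, 7.59 and 7.15 FPKM on day 7. Both were low in all day 37 libraries and high in all day 7 libraries. In the remaining case, LOC110930717, the circRNA on NC_035435.1 from 157482465 to 157484378 had 21, 40 and 38 on day 37 and is listed at 0 on day 7, while the gene had 8.7, 6.15 and 1.54 FPKM on day 37 and 18.32, 18.38 and 18.19 FPKM on day 7. Those circRNA signals are close to the lowest a library lists.

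A circRNA of LOC110935527, on NC_035436.1 from 4264057 to 4267142, was 1 of 2 risen circRNA that were present in at least 2 libraries of both days. It had 816, 515 and 151 on day 37, and 84, 130 and 58 on day 7, and rose by 2.00 ± 0.62 on the log2(signal + 19) scale (limma adjusted p 0.027). Every day 37 library lay above every day 7 library. The gene itself was under 1 FPKM in all 6 libraries and was not tested, with 0.41, 0.07 and 0 FPKM on day 37 and 0.87, 0.84 and 0.81 FPKM on day 7.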

How the data were processed

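Gene levels of mRNA and lncRNA were deposited as FPKM, per the file headers, and circRNA levels as a signal with no unit in the deposited table. The submitters' processing notes name RSEM 1.2.12, Bowtie2 2.2.5, DESeq2 1.4.5 and HISAT2 2.0.4 without a role. The total behind the FPKM is not stated. The row number of both FPKM tables and of the assembled exons is at a spreadsheet limit, so they may be parts of longer tables. The genes followed, gene lists and tests were chosen with earlier results of these data known.

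Features that reached 1 FPKM in 3 or more of 9 libraries were fitted as log2(FPKM + 1) with limma 3.58.1 (trended and robust empirical Bayes) in R 4.3.3. Each table had 1 fit over all 9 libraries, and p-values were adjusted by Benjamini-Hochberg over the table. CircRNA above 0 in at least 3 libraries were fitted as log2(signal + 19). The fits were checked on simulated data with independent noise in each library and 200 changed features. These data held no shift of a whole library, so the check does not bear on the scaling. Fold changes on these scales understate the change of low genes. Named genes are the 10 risen and 10 fallen with the largest change among those without overlap, the 8 highest on each day and the 5 highest uncalled. For lncRNA they are the 5 risen and 5 fallen with the largest change and the 3 highest of each day. For circRNA they are the 3 risen and 3 fallen with the largest change and the 5 highest on both days. Others are said to be chosen after their values were seen. Lists by product name and descriptions by promoter or protein sequence could not be made, since the gene table holds neither. Symbols and the order of protein-coding genes come from HanXRQr2.0-SUNRISE, whose coordinates are not printed. Deviations of same-numbered libraries correlated at 0.221 to 0.597 between day 37 and day 22 and at 0.187 to 0.259 between day 22 and day 7. The labels do not say whether the numbers pair libraries, so step counts are also given with the number as a block. Python 3.11.15 with pandas 2.3.3, numpy 2.4.6, scipy 1.17.1 and matplotlib 3.10.9 did the rest.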

Additional observations from a re-analysis of the deposited data

How the results depend on the processing

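The pseudocount (0.1), the filter (none, or 5 FPKM), the fit of 6 libraries alone and the replicate number as a block left the counts of mRNA and lncRNA calls within 1.5 times of those reported. With the replicate block 713 mRNA genes rose and 9693 fell, and for lncRNA 35 and 269. Deviations of same-numbered libraries of day 37 and day 7 correlated at −0.0008, 0.028 and 0.026, so no pairing of these days was seen. At the steps the block, added after the data were seen, left every count within 1.5 times. Between day 22 and day 37, 133 of the risen genes rose and 4573 of the fallen ones fell in a fit of these days alone. No call between day 22 and day 37 of the 46 named mRNA genes was lost. Some were gained: in that fit LOC110936731, LOC110895162, LOC110870624 and LOC110894923 were called risen after day 22, and LOC110865285 was called fallen. Scaling moved counts more. Rises of mRNA numbered 1128 with quantile normalization and 1579 with annotated totals set equal (a scaling added after the data were seen), and falls 4932 with annotated totals. For lncRNA, the factors of annotated totals and of 453 genes of at least 10 FPKM were those of the mRNA table. The lncRNA rises were 21 with median-of-ratios scaling, 18 with quantile normalization and 52 with annotated totals. Falls of lncRNA were 150 with scaling on the 453 genes and 79 with annotated totals. The cause was not tested.

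Leaving out 1 library at a time gave 666 to 853 mRNA rises, 8384 to 10284 mRNA falls, 32 to 39 lncRNA rises, 230 to 282 lncRNA falls, 17 to 44 circRNA rises and 285 to 329 circRNA falls. The sign of 5 named genes turned. LOC110899555 stood at 0.82 (median-of-ratios), 0.98 (quantile), 0.57 (10 FPKM genes), 1.48 (annotated totals) and −0.83 to 0.57 with 1 library left out, and ID110940572 at 0.47, 0.68, 0.24 and 1.07 with these 4 scalings. LOC110932526 stood at 0.38 (quantile), LOC110870624 at −0.27 to 0.97 with 1 library left out (−0.27 and −0.11 without day 37 replicates 1 and 2), and the lncRNA LOC110871433 at 0.72 (10 FPKM genes), 1.61 (annotated totals) and −0.31 to 0.20 with 1 library left out. The median log2 change of all tested mRNA features was −0.32 as deposited, 0.37 with median-of-ratios, −0.06 with quantile, 0.20 with 10 FPKM genes and 0.80 with annotated totals. Of the named genes and circRNA, 34 of 46 mRNA, 12 of 14 lncRNA and 9 of 11 circRNA kept direction and call in every setting run. A count test of circRNA was not run, since whole reads were not recovered from the whole signal. Signals under 400 lay within 0.494 of whole multiples of 1 step per library, and higher signals were not checked for this. FPKM gives no depth, so no counting error can be set beside a value.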
